A study of Mus musculus with 2 samples.

Results

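Matrix metalloproteinases (MMPs) are zinc-dependent enzymes that cut collagens, laminin, elastin and other proteins around cells, and the tissue inhibitors of metalloproteinases (TIMPs) bind and block their active sites. Most MMPs are secreted as inactive proenzymes, and their messages are induced in fibroblasts by inflammatory cytokines such as IL-1β. In lung they are best known for turning over the matrix of the alveolar wall after injury. Here 10 genes were followed by symbol among the 27998 genes of the count matrices. They were the stromelysins Mmp3 and Mmp10, the collagenase Mmp13, the macrophage elastase Mmp12, the gelatinases Mmp2 and Mmp9, the membrane-anchored Mmp14, and the inhibitors Timp1, Timp2 and Timp3. All 10 were present and had UMIs in both libraries. A UMI (unique molecular identifier) marks 1 captured molecule, and a 3′ kit was used, so counts were not scaled by transcript length.

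The libraries came from organoids grown from alveolar type 2 (AT2) cells of C57BL/6 SPC-CreERT2;R26R-tdTomato mice given tamoxifen, in which the surfactant protein C promoter drives Cre and marks AT2 cells and their progeny. AT2 cells were co-cultured with cultured lung stromal cells depleted of CD31, EpCAM and CD45 positive cells, and received PBS (control) or IL-1β. The series description gives 2 weeks of culture, whereas the study elsewhere gives a later day of isolation for these cells, so the time in culture is not certain. There was 1 library of each, so no difference below has a replicate check, no test was made, and every interval (95%) covers counting error only. For its epithelial analysis of the organoids the study set the stromal cells aside, and it separately compared growth factor genes in the stromal cells of these cultures. Stromal cells are kept here because most UMIs of these genes lay in them. Exceptions were Timp3 with IL-1β (15.5% in stromal cells) and Mmp12 in control (1 of 2 UMIs).

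After filtering, 2081 control cells and 3058 IL-1β cells were clustered without the 10 genes or related protease genes. Stromal cells numbered 797 and 475, with median depths of 15735 and 14849 UMIs. AT2-lineage cells (AT2, primed and cycling clusters) numbered 906 and 977, DATP-like cells (damage-associated transient progenitors, Krt8- and Cldn4-expressing intermediates) 30 and 516, AT1-like cells 262 and 362, and 86 and 728 epithelial cells stayed unnamed. The names are not sharp. Cluster E5, which held 356 of the 362 IL-1β AT1-like cells, had 2 AT1 markers (Hopx, Akap5) and 2 DATP markers (AW112010, Cldn4) among its 10 leading genes, and its summed DATP markers (3041 CPM) were above those of E4 (2424 CPM), the main IL-1β DATP-like cluster, which had 0 of either list among its leading genes. Summed AT1 markers stood at 9684 CPM in E5, 1216 CPM in E4 and 16998 CPM in E6, the main control AT1-like cluster. Summed AT2 markers stood at 80948 CPM in E4 and 64706 CPM in E10, the control DATP-like cluster. They stood at 111620 CPM in E1 and 131907 CPM in E2, the main IL-1β and control AT2-lineage clusters, and at 28870 CPM in E5. The DATP-like cells thus kept a high level of AT2 markers. The libraries stood apart: apart from a contractile-like stromal cluster and a small cluster led by epithelial genes, nearly every cluster came mostly from 1 library. Library and treatment therefore cannot be told apart, and a lower level in a class cannot be told apart from a different mix of cells in it. In the IL-1β stromal cells the macrophage markers Ptprc, Adgre1, Mrc1, C1qa, C1qb, C1qc and Laptm5 had 0 UMIs, 7 of the 10 on the list. In the control stromal cells all 10 had UMIs, and 4 macrophage-like cells formed a cluster of their own.

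Positions are given on GRCm38 with the GENCODE annotation, since 4 of the genes lie near each other on chromosome 9 and others overlap a gene on the opposite strand. Mmp13 (chr9:7272514-7283331), Mmp12 (chr9:7344381-7369499), Mmp3 (chr9:7445822-7455975) and Mmp10 (chr9:7502352-7510240), all on the plus strand, belong to a run of 10 MMP genes that spans 427 kb of chromosome 9. Mmp9 is on chromosome 2 (164940780 to 164955850), Mmp2 on chromosome 8 (92827291 to 92853420) and Mmp14 on chromosome 14 (54431612 to 54445364), also on the plus strand. Timp1 (chrX:20870166-20874735, plus) lies within Syn1 and Timp3 (chr10:86300372-86349506, plus) within Syn3, both on the opposite strand, and Timp2 is on the minus strand of chromosome 11 (118301069 to 118355740). Syn1 had 8 and 5 UMIs in control and IL-1β cells, Syn3 124 and 56, and Mmp1b, which overlaps the end of Mmp12 on the minus strand, 0 in both. The sources used here do not say whether counting used the strand. They also do not say how reads shared by near copies such as Mmp3 and Mmp10 were placed.

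The 4 members of the chromosome 9 run are shown by the start of their transcripts, since all 4 were among the genes with the largest IL-1β to control ratios in stromal cells. RefSeq promoter windows (GRCm38.p6, 250 bases before the start and 50 bases from it) were at hand for 8 of the 10 genes, and Mmp2 and Mmp9 had no entry. Each sequence below runs from 100 bases before the start to 50 bases from it, on the plus strand. Capitals mark the AP-1 site TGAGTCA on either strand and the TATA box TATAAA on the strand of the gene.
Mmp3, chr9:7445722-7445871: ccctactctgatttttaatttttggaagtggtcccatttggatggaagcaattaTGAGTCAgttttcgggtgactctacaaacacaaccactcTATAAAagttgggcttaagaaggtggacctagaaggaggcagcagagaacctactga
Mmp10, chr9:7502242-7502391: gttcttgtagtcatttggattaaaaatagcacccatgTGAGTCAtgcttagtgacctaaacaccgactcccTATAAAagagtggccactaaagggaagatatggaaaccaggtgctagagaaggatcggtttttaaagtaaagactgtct
Mmp12, the second of 2 starts, chr9:7347274-7347423: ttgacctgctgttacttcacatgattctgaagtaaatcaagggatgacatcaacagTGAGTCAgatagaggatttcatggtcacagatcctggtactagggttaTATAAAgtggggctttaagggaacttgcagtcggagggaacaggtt
Mmp13, chr9:7272414-7272563: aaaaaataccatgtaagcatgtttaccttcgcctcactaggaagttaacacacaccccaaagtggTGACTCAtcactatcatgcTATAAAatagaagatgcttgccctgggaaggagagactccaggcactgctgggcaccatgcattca
Each of these windows held 1 copy of both motifs, and the AP-1 site began 46 bases before the listed start in Mmp3, 63 in Mmp10, 44 in Mmp12 and 35 in Mmp13. The TATA box began 7 bases before the listed start in Mmp3, 29 in Mmp10 and 16 in Mmp13. In Mmp12 it began after the listed start, at base 5 from it. Its distance from the start thus differed between the genes, and whether the listed starts are those used in these cells was not tested. Of all 32851 promoter windows, 5.20% held the AP-1 site, 8.32% the TATA box and 0.624% both. Neither motif was found in the windows of Mmp14, Timp1, Timp2 or Timp3, nor in that of the first Mmp12 start. Of 13 further MMP genes with a window, 3 held both motifs, Mmp1a, Mmp1b and Mmp7, all of the same run. In that run Mmp20 held the TATA box alone, and Mmp8 and Mmp27 held neither motif. Among the IL-1β cells Mmp1a, annotated as a polymorphic pseudogene, had 64 UMIs, Mmp1b 0 and Mmp7 2. A match of letters describes the sequence and is not evidence that a factor bound there.

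In stromal cells, 6 of the 10 genes were at least 2-fold higher with IL-1β (Mmp3, Mmp9, Mmp10, Mmp12, Mmp13 and Timp1), 1 was at least 2-fold lower (Timp3), and Mmp2, Mmp14 and Timp2 stayed inside that limit. A gene was called when its ratio of CPM (UMIs of the gene per 1000000 UMIs of the class) was at least 2 or at most 0.5, the interval excluded 1 and at least 20 UMIs were present. By the same rule 4.99% of the 12843 genes compared in stromal cells were called higher and 12.8% lower, 17.8% in either direction. The median log2 ratio was 3.24 over the 10 genes and -0.33 over all genes compared, so the median gene was itself lower with IL-1β, and relative to it Mmp14 would pass the limit as well. The 10 genes were chosen with earlier results of these data known, so setting them beside all genes is a description and no test.

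Mmp3, a stromelysin that cuts proteoglycans, laminin and other proenzymes, had the highest level of the family with IL-1β. It stood at 309 CPM in control and 11559 CPM in IL-1β stromal cells, a ratio of 37.4 (36.3 to 38.6). In single cells the median Mmp3 level was 39.8 CPM in control and 8337 CPM with IL-1β. Thus 81.8% of all UMIs of the 7 MMPs in IL-1β stromal cells were Mmp3, against 23.0% in control. The second stromelysin, Mmp10, had 7 UMIs in all control stromal cells (0.515 CPM) and 2789 with IL-1β (295 CPM), a ratio of 573 with a wide interval (278 to 1425).

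Mmp12, an elastase best known from macrophages, had 1 UMI in the 797 control stromal cells and 5893 UMIs in the 475 IL-1β stromal cells (623 CPM). The ratio was 8469, with an interval from 1519 to 334546 that reflects the single control UMI. Mmp13, which cuts fibrillar collagen, had 11 UMIs in control (0.809 CPM) and 292 with IL-1β (30.9 CPM), a ratio of 38.1 (21.0 to 77.3). Mmp9, a gelatinase also known from myeloid cells, stood at 3.09 and 66.9 CPM, a ratio of 21.7 (15.8 to 30.4). Ordered by ratio among the 12843 genes, Mmp12 stood at 24, Mmp10 at 26, Mmp13 at 39, Mmp3 at 40 and Mmp9 at 62.

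Mmp2 and Mmp14 differed far less. Mmp2, the constitutive gelatinase of fibroblasts, had 749 CPM in control and 1059 CPM with IL-1β, a ratio of 1.41 (1.38 to 1.45). Mmp14, the membrane protease that activates pro-Mmp2, had 280 and 493 CPM, a ratio of 1.76 (1.69 to 1.84).

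The 3 inhibitors went different ways. Timp1, a secreted inhibitor, stood at 839 CPM in control and 3466 CPM with IL-1β, a ratio of 4.13 (4.04 to 4.22). Timp2, which also takes part in pro-Mmp2 activation by Mmp14, stood at 1003 and 1276 CPM, a ratio of 1.27 (1.24 to 1.30). Timp3, which is held in the matrix and also blocks ADAM and ADAMTS proteases, stood at 619 and 96.7 CPM, a ratio of 0.156 (0.146 to 0.167). Summed, the 7 MMPs had 18247 UMIs against 33439 of the 3 TIMPs in control stromal cells, or 0.546 MMP UMIs for each TIMP UMI. With IL-1β the sums were 133591 and 45759, or 2.92. Mmp3 alone held 109303 of these MMP UMIs with IL-1β, against 4196 in control. The MMPs made up 0.134% of all stromal UMIs in control and 1.41% with IL-1β.

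**Figure D1:**
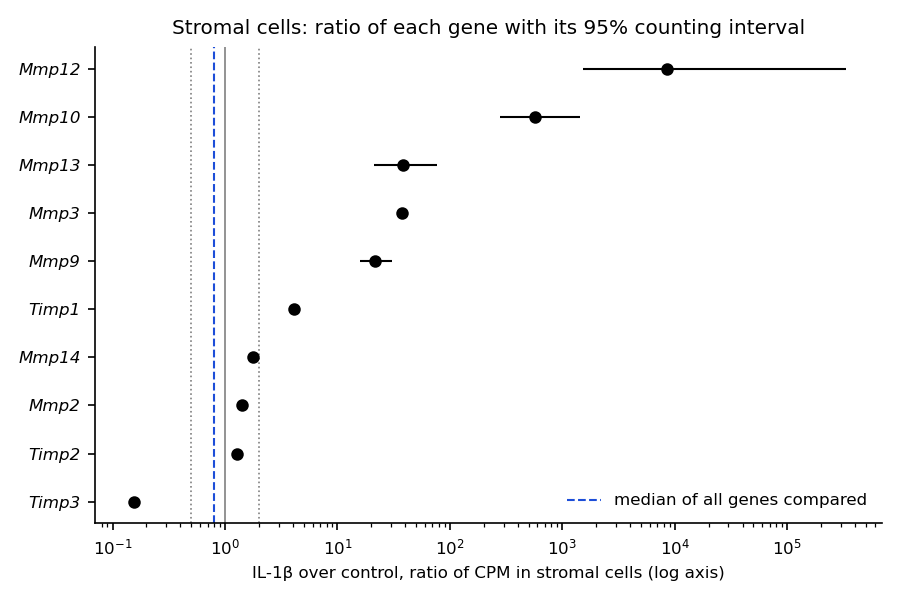
Ratio of CPM in IL-1β over control stromal cells for each gene (points, log axis), with 95% counting intervals; dotted lines mark the limits of 0.5 and 2, the solid line 1 and the dashed line the median of all genes compared. Mmp12, Mmp10, Mmp13, Mmp3, Mmp9 and Timp1 lie above 2, Timp3 alone below 0.5.

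The shares of cells followed 3 patterns. Mmp2, Mmp14, Timp1 and Timp2 had a UMI in 88.1% or more of stromal cells of either library. Mmp3 was found in 52.8% (49.3 to 56.3) of control and 100% of IL-1β stromal cells, and Timp3 in 86.6% (84.0 to 88.9) and 48.0% (43.4 to 52.6). Mmp9, Mmp10, Mmp12 and Mmp13 were found in 3.51%, 0.502%, 0.125% and 0.502% of control stromal cells, and in 36.0%, 30.1%, 49.3% and 12.2% with IL-1β. With each cell thinned to 4000 UMIs the latter shares were 17.5%, 17.9%, 29.5% and 5.47%, and those of Mmp3 33.1% in control and 97.9% with IL-1β.

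Epithelial cells of the same IL-1β library, whose median depth was 11293 UMIs, had a UMI of Mmp3 in 95.6%, Mmp12 in 19.7%, Mmp10 in 6.58%, Mmp9 in 1.70% and Mmp13 in 1.20% of cells. The share of Mmp3-positive cells therefore hardly separated stromal from epithelial cells of this library, whereas the levels, 11559 against 319 CPM, did. With cells thinned to 4000 UMIs the Mmp3 share of epithelial cells was 72.0%.

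Within the IL-1β stromal cells the UMIs of Mmp10 and Mmp12 were unevenly spread also among the cells that had them. Of the 143 cells with Mmp10 and the 234 with Mmp12, the tenth with the most UMIs held 75.0% and 78.6% of the UMIs. For Mmp3, present in all 475 cells, and Mmp2, present in 460, the cells at the top by the same rule held 39.9% and 30.5%. Single cells held up to 1146 UMIs of Mmp12, 584 of Mmp10 and 74 of Mmp13. Without the cell with the most UMIs of each gene the same 7 genes were called, and the stromal ratio was 6836 for Mmp12, 455 for Mmp10 and 28.6 for Mmp13. Among Mmp3, Mmp9, Mmp10, Mmp12 and Mmp13, 366 of the 797 control cells had none and 0 had more than 3. Of the 475 IL-1β cells 0 had none, 54 had 4 of the 5 and 11 had all 5. Mmp10 was found in 40.2% of the cells with Mmp12 and in 20.3% of those without, and after thinning in 33.6% and 11.3%. Free RNA and differences between clusters can both raise such shares, and their part was not tested.

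**Figure D2:**
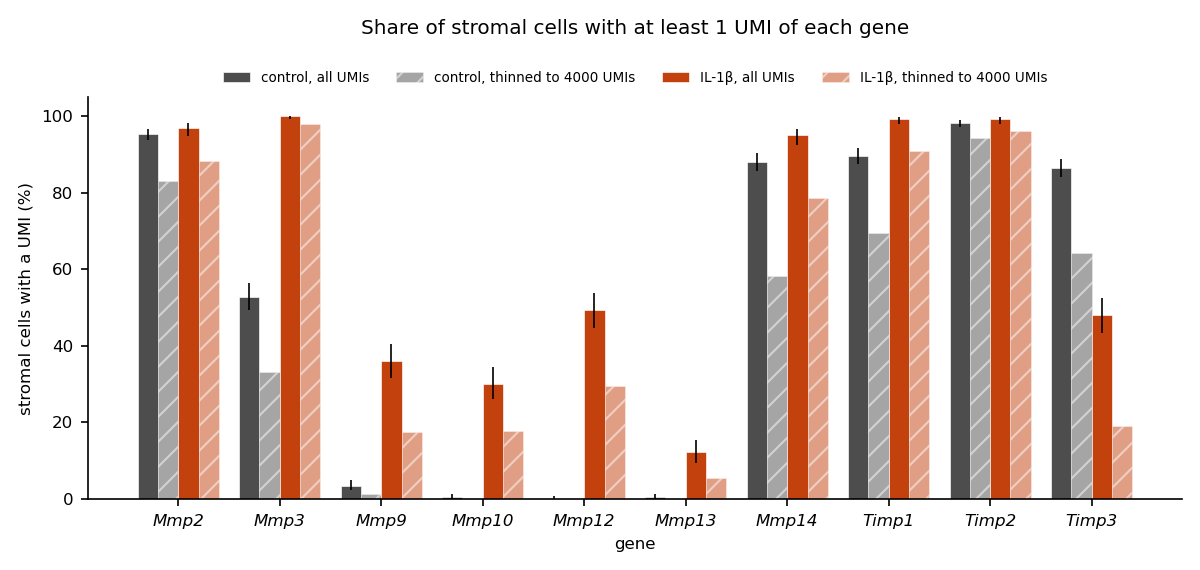
Percent of stromal cells with at least 1 UMI of each gene, in control (797 cells) and IL-1β (475 cells), at full depth (solid bars, 95% Clopper-Pearson intervals) and with each cell thinned to 4000 UMIs (hatched bars). Mmp9, Mmp10, Mmp12 and Mmp13 lie at 3.51% or less in control, and Timp3 is lower with IL-1β at both depths.

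The stromal clusters differed in which proteases they held. The IL-1β stromal cells lay mainly in S2 (197 cells, led by Vnn3, Spp1 and Dcn), S3 (167 cells, led by Mt2, Ccl8, Saa3 and Cxcl1) and S8 (66 cells, led by Il11, Crabp1, Slpi and Areg). Mmp3 was high in all of them, at 19026 CPM in S2, 9544 CPM in S3 and 14208 CPM in S8. Their median depths differed, at 7780, 28947 and 16628 UMIs in this order, and the part of depth was not tested. Mmp10 stood at 1802 CPM in S8 and at 67.1 and 30.7 CPM in S2 and S3, and Mmp12 at 2960, 390 and 107 CPM. S8 thus held 88.8% of the stromal Mmp10 UMIs and 69.1% of the Mmp12 UMIs of this library. It was also low in Timp1, with 476 CPM against 3198 CPM in S2 and 4262 CPM in S3.

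Compared with the other 409 IL-1β stromal cells, the S8 cells had ratios of 46.8 (41.6 to 52.9) for Mmp10, 13.1 (12.4 to 13.9) for Mmp12 and 2.96 (2.50 to 3.50) for Mmp9. The Mmp13 ratio was 3.76 (2.95 to 4.79), but 1 cell held 74 of its 114 UMIs in S8, and without it the ratio was 1.36 (0.942 to 1.93) and not called. Without their top cells the ratios of Mmp10 and Mmp12 were 36.9 and 9.56. The Timp1 ratio was 0.120 (0.111 to 0.129), and Mmp2, Mmp3, Mmp14, Timp2 and Timp3 stayed within 2-fold. Of 11070 genes compared this way 5.57% were called higher and 3.84% lower in S8, 9.41% in either direction. S8 was made with other genes of the same cells, so these values describe it and carry no test. Of the 10 macrophage markers, 9 had 0 UMIs in S8, and Cd68, which other cells also express, had the 20 that remained. Of 5 neutrophil markers, 1 had enough UMIs to compare in stromal cells, S100a8, and it was called higher with IL-1β (log2 ratio 2.00). Neutrophil was the best-scoring name for S8, as for S3 and the control cluster S6. Under 3 of its markers were above the other stromal cells in each, so they stayed unnamed.

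A further 23 IL-1β cells lay in S9, a cluster led by the epithelial genes Slc34a2 and Cldn18, in which the AT2 markers summed to 39574 CPM against 6016 CPM in all IL-1β stromal cells. Mmp12 stood at 1352 CPM there, and S9 held 8.89% of stromal Mmp12 UMIs. Without S9 the same 7 genes were called in stromal cells, and the same held without the 4 macrophage-like control cells.

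Only the contractile-like cluster S5, led by Acta2 and Tagln among others, held over 20 cells of each library, 85 control and 21 IL-1β cells. Here Mmp3 stood at 115 CPM in control and 2227 CPM with IL-1β, a ratio of 19.4 (16.9 to 22.4). However, 1 cell held 897 of the 1389 IL-1β UMIs and 5 cells held 93.6%, and the median cell had 267 CPM, below the 319 CPM of epithelial cells of that library. Without that cell the ratio was 7.86 (6.72 to 9.22). Timp1 stood at 2139 and 5314 CPM, a ratio of 2.48 (2.37 to 2.60) that dropped to 1.98 (1.88 to 2.08), short of the limit, without 1 cell with 1002 UMIs. Judged by the UMIs left without it, the same deep cell led Mmp2, Mmp3, Mmp14 and Timp1 in S5. Whether it was a doublet was not tested. Timp3 stood at 1618 and 467 CPM, a ratio of 0.288 (0.255 to 0.325), and 0.304 without its top cell. Mmp12 had 0 and 9 UMIs, Mmp10 1 and 3, and Mmp9 7 and 2. Mmp13 was called higher as well, but all 53 of its IL-1β UMIs lay in 1 cell and the call is lost without it. In this cluster 4.31% of the 8725 genes compared were called higher and 6.42% lower. Summed contractile markers stood at 3140 CPM in its control and 819 CPM in its IL-1β cells, so the cells compared were not alike in this respect, and the part of that difference was not tested.

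**Figure D3:**
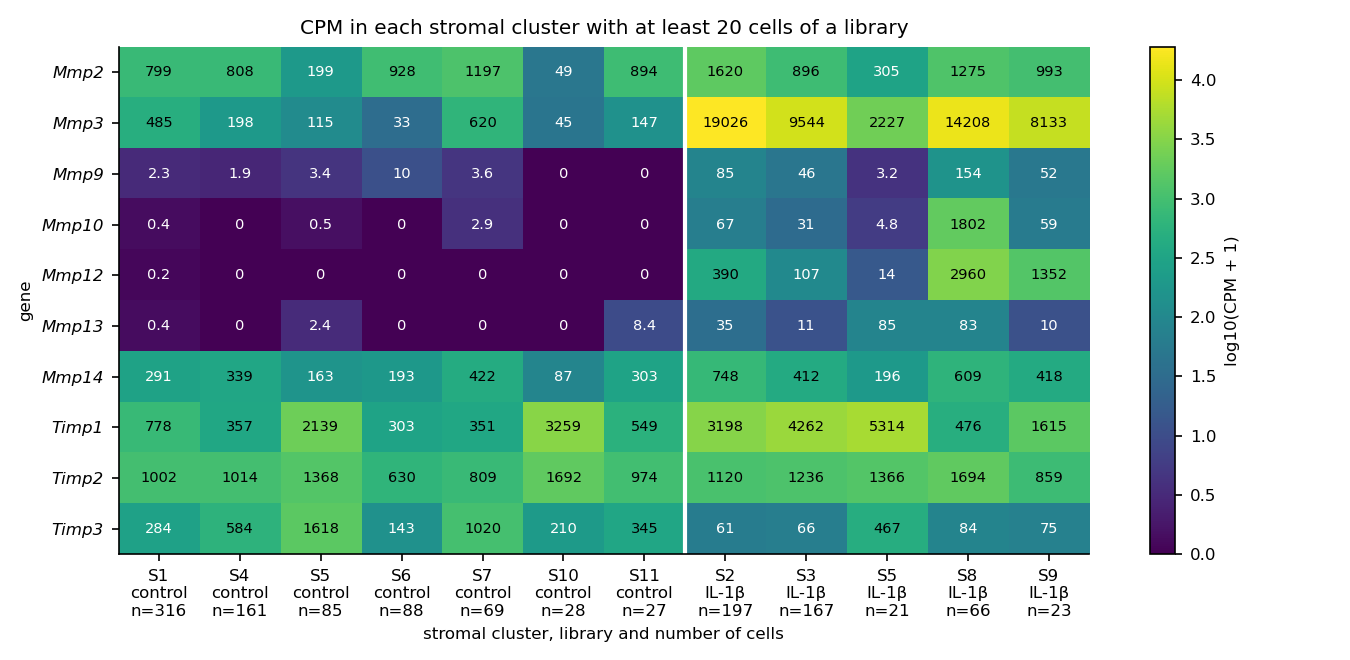
CPM of the 10 genes (numbers) in each stromal cluster with at least 20 cells of a library, control at left and IL-1β at right, coloured by log10(CPM + 1). Mmp10 and Mmp12 stand out in S8, where Timp1 is lowest among the IL-1β clusters, and Timp3 is highest in S5 in both libraries.

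Stromal cells were the main source of the MMPs among the 10 genes. In control, 7 of the 10 genes were at least 2-fold higher in stromal than in epithelial cells, against 23.2% of all genes compared, and Mmp10, Mmp12 and Mmp13 had too few UMIs to compare. With IL-1β, 9 of the 10 were, against 15.8% of all genes. In this library the ratio of stromal over epithelial cells was 36.2 (35.5 to 37.0) for Mmp3, 51.3 (44.1 to 60.0) for Mmp10, 33.1 (30.4 to 36.1) for Mmp12 and 29.8 (28.8 to 30.8) for Timp1. Timp3 was the exception, with a stromal over epithelial ratio of 2.21 (2.14 to 2.29) in control and 0.604 (0.562 to 0.648) with IL-1β. Of the further MMP genes listed below, 6 in control and 8 with IL-1β had enough UMIs to compare. In stromal over epithelial cells 4 and 6 of these were called higher, and 1 was called lower in each library, Mmp15. Of all genes compared, 16.1% and 22.8% were called lower.

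Low levels in epithelial cells were read against free RNA. Col1a1, Col1a2, Col3a1, Dcn, Pdgfra and Pdgfrb, genes of mesenchymal cells, stood in IL-1β AT2-lineage cells at 1.39% to 2.55% of their stromal level, in DATP-like cells at 1.49% to 2.45%, and in AT1-like cells at 1.01% to 2.44%. Mmp3 stood at 2.67%, 2.73% and 2.59% of its stromal level in these 3 classes, just above that range, and Mmp10 at 1.93%, 2.03% and 1.32%, inside it. Mmp9 and Mmp13 had intervals that reached into the range in each class. Mmp2, Mmp12 and Timp1 lay between 2.65% and 3.40% of their stromal level, above the range but by little. The intervals of Mmp2 in AT1-like cells and of Mmp12 in DATP-like and AT1-like cells reached into the range. Whether free RNA accounts for all of these levels was not tested. Mmp3 was also nearly level across these 3 classes, at 309 CPM in AT2-lineage, 316 CPM in DATP-like and 300 CPM in AT1-like cells. Unnamed epithelial cells stood higher, at 348 CPM (336 to 361), with 359 CPM in their cluster E3 and 252 CPM in E9. At these levels free RNA and expression by epithelial cells cannot be told apart, so the values are read as neither.

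The comparison of libraries in epithelial classes carries the same limit. In AT2-lineage cells 6 genes were called higher (Mmp3, Mmp9, Mmp10, Mmp12, Mmp14 and Timp1) and Timp3 lower, against 7.2% and 6.54% of the genes compared. Mmp9, Mmp10 and Mmp12 had 1 control UMI each there, so their ratios are loosely bounded. In DATP-like cells 4 were called higher (Mmp3, Mmp12, Mmp14 and Timp1) and 0 lower, against 4.92% and 8.79%. These calls rest on 30 control cells. With cells thinned to 4000 UMIs only Mmp3 was called, and without a cell filter the Mmp14 log2 ratio turned from 1.22 to -0.80. In AT1-like cells 4 were called higher (Mmp3, Mmp10, Mmp12 and Timp1) and 0 lower, against 5.48% and 4.26%, or 9.74% in either direction. The Mmp3 ratio was 28.8 (24.4 to 34.2) in AT2-lineage and 34.2 (24.2 to 49.8) in AT1-like cells, close to the 37.4 of stromal cells. Different clusters made up each of the 3 classes in the libraries. Control AT2-lineage cells lay mostly in E2 (818 cells) and IL-1β ones in E1 (973 cells). Control DATP-like cells lay in E10 (30 cells) and IL-1β ones mostly in E4, and control AT1-like cells lay mostly in E6 and IL-1β ones in E5.

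With IL-1β, Timp3 and Timp2 in every epithelial class, and Mmp14 in AT1-like and DATP-like cells, stood farther above the reference range than Mmp2, Mmp3, Mmp12 and Timp1 did. Mmp14 was also above it in unnamed cells, at 5.56% of its stromal level, and by little in AT2-lineage cells, at 3.47%. Among the classes Timp3 was highest in AT1-like cells of either library, at 946 CPM in control and 511 CPM with IL-1β. These were 153% and 529% of its level in all stromal cells. The stromal cluster S5 alone stood at 1618 CPM in control, above the AT1-like cells, and at 467 CPM with IL-1β. The ratio of IL-1β over control was 0.541 (0.514 to 0.569) in AT1-like cells, just short of the limit. In AT2-lineage cells Timp3 stood at 111 and 38.5 CPM, a ratio of 0.346 (0.311 to 0.383), and in DATP-like cells at 331 and 178 CPM, a ratio of 0.538 (0.453 to 0.642). Timp3 thus passed the 2-fold limit in stromal and AT2-lineage cells. In DATP-like cells the direction held in 8 of 11 alternative analyses, against 12 of 12 in the other classes.

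Timp2 followed another pattern. It stood at 497 CPM in control and 361 CPM in IL-1β AT1-like cells, a ratio of 0.728 (0.682 to 0.777). In AT2-lineage cells it stood at 137 and 216 CPM, a ratio of 1.58 (1.49 to 1.67), and in DATP-like cells at 194 and 260 CPM, a ratio of 1.34 (1.08 to 1.68) whose direction held in 9 of 11 alternatives. Its epithelial levels were between 13.7% and 49.5% of the stromal level.

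Of the MMPs with at least 20 UMIs in the class, Mmp14 in AT1-like cells lay farthest above the reference range in either library. There it stood at 44.7 CPM in control and 51.2 CPM with IL-1β, or 15.9% and 10.4% of its stromal level, with a ratio of 1.15 (0.939 to 1.40) whose interval includes 1. In AT2-lineage cells it stood at 5.94 and 17.1 CPM, or 2.12% and 3.47% of the stromal level, and in DATP-like cells with IL-1β at 30.6 CPM, or 6.20%. DATP-like control cells had 6 Mmp14 UMIs. The order of Mmp14 epithelial levels with IL-1β, AT1-like over DATP-like over AT2-lineage, was the order of Timp3 and Timp2 as well. In each the counting intervals of neighbouring classes did not overlap, but these leave out spread among cells. Timp3 was found in 93.9%, 45.2% and 25.1% of cells in this order, with medians of 374, 0 and 0 CPM. In DATP-like cells 1 cell held 99 of the 980 Timp3 UMIs. The median of Timp2 kept the order, at 328, 234 and 191 CPM, and that of Mmp14 was 0 in each class. Unnamed IL-1β epithelial cells, with 122 CPM of Timp3, were left out of this order. This order rests on the class names, which E5 and E4 separate less sharply by DATP than by AT1 markers. By summed AT2 markers E4 (80948 CPM) was nearer to E1 (111620 CPM) than to E5 (28870 CPM).

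**Figure D4:**
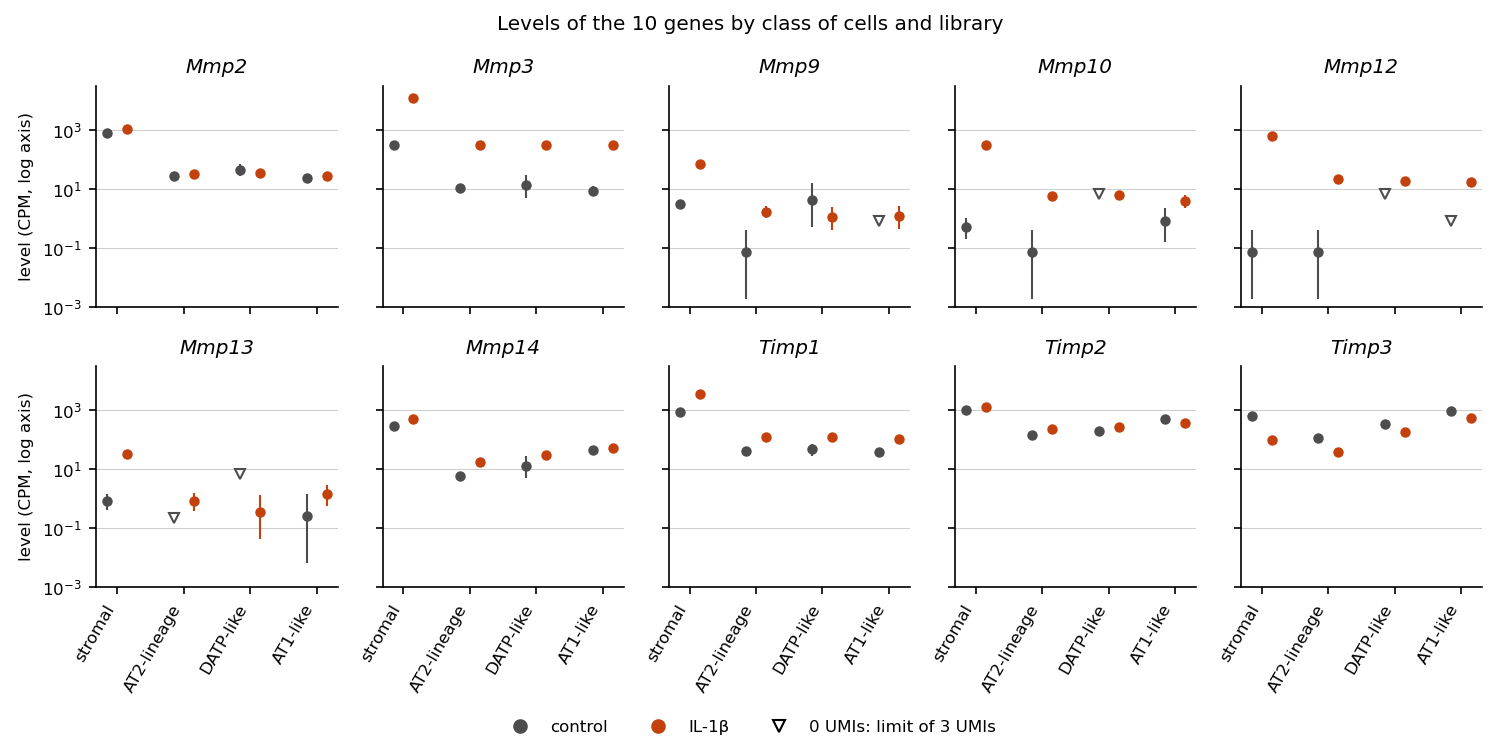
CPM (log axis) of each gene in stromal, AT2-lineage, DATP-like and AT1-like cells of the control and IL-1β libraries, with 95% Poisson intervals; open triangles mark classes with 0 UMIs at the level of 3 UMIs. Mmp3 is near 300 CPM in each epithelial class shown with IL-1β, while Timp3 is highest in AT1-like cells with IL-1β.

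**Figure D5:**
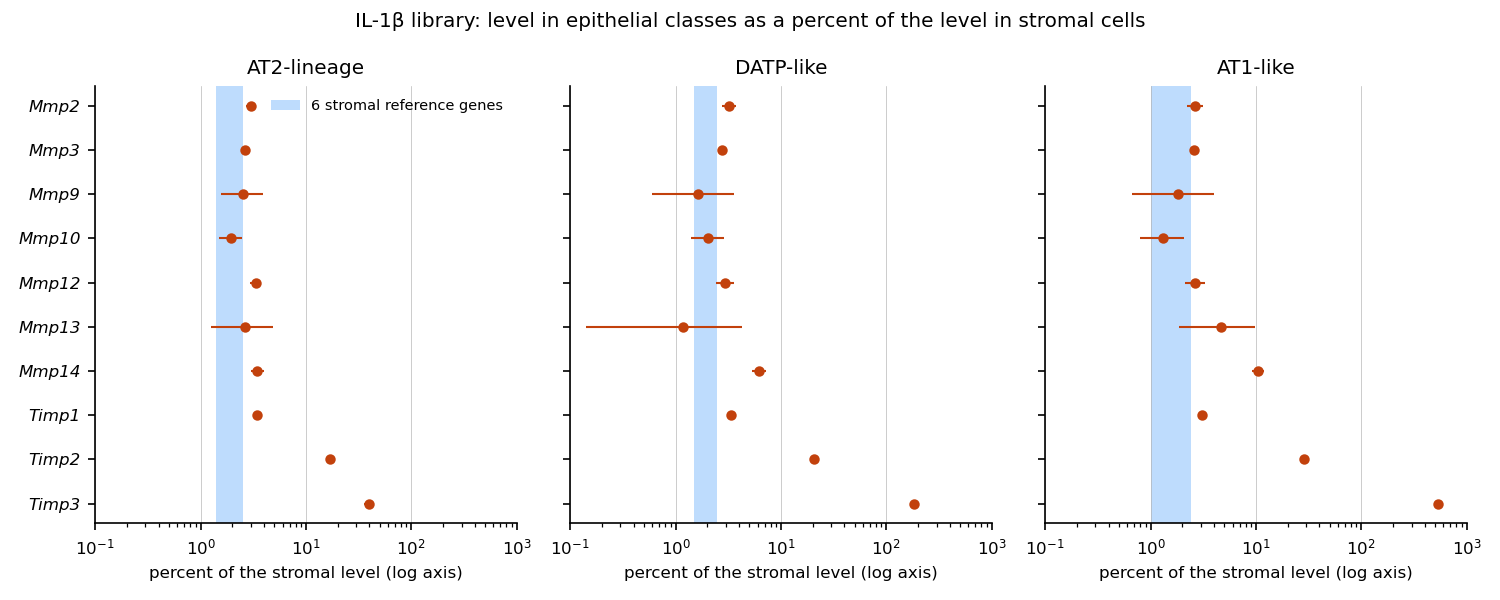
Level of each gene in epithelial classes of the IL-1β library as a percent of its level in stromal cells (points, log axis, 95% counting intervals). The band spans 6 stromal reference genes, which also helped to sort clusters into stromal and epithelial. Most MMPs and Timp1 lie in the band or just to its right, and Timp2, Timp3 and, in AT1-like and DATP-like cells, Mmp14 lie farther to its right.

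Other proteases and inhibitors of stromal cells were counted from lists. Over all genes compared in stromal cells, 4.99% were called higher with IL-1β and 12.8% lower. Of 16 further MMP genes 8 had enough UMIs, and 4 of these were called higher with IL-1β and 0 lower. They were Mmp8, a collagenase also of chromosome 9 (4.27 and 17.2 CPM, a ratio of 4.04), Mmp11 (2.61), Mmp28 (2.34, from 16 and 26 UMIs) and Mmp1a. Mmp1a, an interstitial collagenase gene, is listed as a polymorphic pseudogene in the annotation used here. It had 0 UMIs in control and 57 with IL-1β and so was at least 27.3-fold higher. Of 5 other inhibitors and cofactors with enough UMIs, Tfpi2 was called higher (10.1), and Reck (0.492), a membrane-anchored MMP inhibitor, and Timp4 (0.293), the remaining TIMP, were called lower. Timp3 and Timp4 were thus both lower with IL-1β in stromal cells while Timp1 was higher. Relative to the median gene, which was itself lower with IL-1β, Reck would fall inside the 2-fold limit.

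Of 11 ADAMTS genes, secreted proteases of proteoglycans and procollagens, Adamts7 was called higher (3.03) and Adamts1 (0.422), Adamts5 (0.230), Adamts9 (0.292) and Adamts15 (0.0580) lower. The median log2 ratio of this list was -0.41, near the -0.33 of all genes, against 0.20 for the further MMPs. Relative to the median gene Adamts1 would fall inside the 2-fold limit. Of 8 ADAM genes 1 was called lower, Adam12 (0.0527), near the 12.8% called lower over all genes. In the plasminogen system, which can activate pro-MMPs, 2 of 5 genes were called higher, the inhibitors Serpinb2 (20.6) and Serpine2 (3.97). Of 3 genes of the IL-1 receptor list 0 were called, and the receptor Il1r1, picked after its values were seen, stood at 39.4 CPM in control and 39.7 CPM with IL-1β.

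The genes whose levels went most closely with each member were read over 22 groups (a cluster within a library, at least 20 cells) and 12244 genes, as Pearson correlations of log2(CPM + 1). Groups share libraries and cell classes, so these values describe likeness alone. Mmp10 and Mmp12 were each the closest gene to the other (0.952). Mmp2 went most closely with Fbn1 (0.986), the gene of the microfibril protein fibrillin, Mmp14 with Ctsk (0.967), the cysteine protease cathepsin K, and Mmp3 with the proteoglycan gene Dcn (0.957). Timp1 was closest to Fbln2 (0.958), Timp2 to the collagen chaperone gene Serpinh1 (0.953), Mmp13 to Car9 (0.898), Mmp9 to Snap25 (0.887) and Timp3 to Swap70 (0.872). Most IL-1β UMIs of Mmp13 in S5 and in S8 lay in 1 cell each, and its correlation was not recomputed without those cells.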

How the data were processed

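Per the labels and methods, droplet 3′ single-cell libraries were aligned to GRCm38 and quantified with Cell Ranger (the submitters' processing notes also name mm9 and Scanpy 1.3.6), and the authors deposited raw UMI counts per gene and barcode, 33965848 UMIs in 2101 control barcodes and 41220175 in 3066 IL-1β barcodes. The study's cell filter (over 500 and under 7000 genes, over 2000 UMIs) left 5142 of 5167 barcodes. Scrublet with the study's settings flagged 3 cells (0.0583%), too few for the caller to have worked, so doublets remain. Of the barcodes, 11 occurred in both libraries. Counts were scaled to 10000 per cell and logged, and 50 components, 15 neighbours and Leiden clustering at resolution 1.0 were used (scanpy 1.11.5), first on all cells and then on epithelial and stromal cells apart. The 10 genes and 60 listed genes were left out of clustering. Clusters were named from marker lists. UMIs were summed per class and library and scaled to 1000000 UMIs of the class (CPM). Shares have exact Clopper-Pearson, levels exact Poisson and ratios exact conditional binomial intervals at 95%. A count of 0 was given a limit of 3 UMIs. The ratio step was run on simulated Poisson counts. These follow the model of its intervals, so the run does not bear on uneven spread of UMIs among cells. Named genes were the 10 members, listed genes called in stromal cells, the closest gene to each member and markers. The members and lists were chosen with earlier results of these data known. Alternatives covered clustering, filters, scaling and depth. The strand of counting is not given in the sources used here.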

Additional observations from a re-analysis of the deposited data

Results flagged for a closer look

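Timp2 was lower with IL-1β in AT1-like cells, with a ratio of 0.728 (0.682 to 0.777), and higher in stromal, AT2-lineage and DATP-like cells, with ratios of 1.27, 1.58 and 1.34 and intervals above 1. In DATP-like cells, with 30 control cells, that direction held in 9 of 11 alternative analyses. With 1 library per condition the difference between these classes was not tested, and in each epithelial class the cells of the libraries lay mostly in different clusters.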

How the results depend on the processing

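Each count of genes past the 2-fold limit was recomputed under 12 alternatives, and under up to 4 more chosen after the data were seen. In stromal cells 7 genes were called under every alternative except the ratio relative to the median gene, which added Mmp14 for 8. In DATP-like cells, with 30 control cells, the count of 4 dropped to 1 with each cell thinned to 4000 UMIs, and without a cell filter the Mmp14 log2 ratio there changed from 1.22 to -0.80. With all highly variable genes no control cells were DATP-like, so that comparison was not run. Of 87 recomputed counts 86 stayed within 1.5 times the main count, and of 789 recomputed values of single genes (ratios and shares) 681 stayed inside the main counting interval, 107 moved and 1 called value (Mmp14 in DATP-like cells) changed direction. A further 14 log2 ratios, of Mmp2, Timp2 and Timp3 in DATP-like and Mmp14 in AT1-like cells, also took the other sign, but were not called in the main analysis. Timp3 stayed lower in stromal, AT2-lineage and AT1-like cells under all 12 alternatives, but in DATP-like cells in 8 of 11, and Timp2 stayed lower in AT1-like cells (log2 ratio -0.69 to -0.43). No paired analysis was possible because each group had 1 library, and for the same reason no replicate could be left out.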
